A study of Mus musculus with 145 samples.

Results

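The enzymes that make leukotrienes and prostaglandins were followed through sorted mouse cell types on Affymetrix expression arrays. The 10 enzyme genes were chosen by name, with earlier results of these data known. Of these, 9 had a probe set annotated to a single symbol, among 19752 genes measured in this way: Alox5, Alox5ap, Ltc4s, Lta4h, Alox12, Alox15, Ptgs2, Ptges and Hpgds. Each of the 9 had 1 such probe set, so no choice among probe sets had to be made. Ptgs1, which encodes the constitutive cyclooxygenase, was not analysed here. Values are RMA intensities, a linear brightness per probe set. Differences are on the log2 scale, with their standard errors from limma, and a call is an adjusted p under 0.05.

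Leukotrienes and prostaglandins are short-lived lipid mediators made from arachidonic acid that phospholipases free from membranes. On one branch 5-lipoxygenase (Alox5), helped by its activating protein (Alox5ap), makes leukotriene A4, which leukotriene A4 hydrolase (Lta4h) turns into the neutrophil attractant leukotriene B4. Leukotriene C4 synthase (Ltc4s) instead couples it to glutathione to give the cysteinyl leukotrienes. On the other branch cyclooxygenases (Ptgs1 and Ptgs2) make prostaglandin H2, from which Ptges makes prostaglandin E2 and Hpgds makes prostaglandin D2. Alox12 and Alox15 encode lipoxygenases that oxygenate fatty acids at other positions.

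The series holds 145 arrays in 65 groups of sorted cells, of which 12 groups have 1 array, 28 have 2, 23 have 3 and 2 have 4. Array medians ran from 111.7 to 146.7 intensity units. The labels do not tie replicates to separate animals, so a p-value here measures the spread among arrays, which may be technical, and the few arrays per group limit the precision. No detection calls were used, so a level near a gene's lowest group mean may be background, and folds against it may be understated. Groups of 1 array entered no test, and their values are set beside those of other groups only as a description.

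Most groups came from untreated C57BL/6 males of 5 to 9 weeks. Mast cells were taken from skin (MC.Sk) and the peritoneal cavity (MC.PC), with single arrays from muscle (MC.To) and a digest of the cavity. Arrays 5 and 6 of MC.PC carry blood as their source in the labels, and the exclusion markers of array 0 were left unfilled. Blood gave eosinophils, neutrophils (GN), 1 basophil array, and monocytes (Mo.6+2-.BL, which the sort text gives as MHCII+ against the title), and visceral fat gave a further eosinophil array. The fat and blood granulocyte arrays carry ages of 43 to 52 days or of 6 to 7 weeks. Macrophages came from peritoneum, liver (F4/80 high, and a group titled intermediate whose sort text says F4/80 low), lung (alveolar, and CD11c- CD11b+) and fat, monocytes also from lung and skin-draining nodes, and dendritic cells (CD11b+ and CD11b-) from fat.

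The peritoneal macrophages labelled Gata6ko and their controls share a mixed background and an age of 9 weeks, and the labels do not say which Cre was used. Thymic epithelium was cortical (CEChi, and CEC Sca1+) or medullary (MEChi, MEClo, MEC Sca1+) from mice of 5 or 8 weeks, under 1 shared sort text in the labels. Another medullary set, of mixed sex at 5 weeks, was GFP+, GFP- and GFP+ KO, the mutated gene being left unnamed. Lymph node stroma of 6 weeks comprised lymphatic endothelium (LEC), fibroblastic reticular cells (FRC) and double-negative cells (DN), untreated or 6 days after complete Freund's adjuvant (CFA). Naive lymph node CD4 and CD8 T cells of 6 weeks were cultured with CD3 and CD28 antibody beads for 1, 5, 24, 48 or 96 h, and the labels give their controls (CTR) the same treatment text. Spleen T cells were naive CD4 cells, CD4 effectors 8 days and memory cells 30 days after LCMV, and CD8 cells 6 or 8 days after Listeria carrying ovalbumin. The labels give these CD4 cells an age of 6 weeks and these CD8 cells one of 45 days. The day 6 cells are OT1 effectors titled Tbet- (sorted as CD45.1+ CD45.2-) or Tbet+ (CD45.2+ CD45.1-), with no genotype stated beyond that, and the day 8 cells were parted by KLRG1 and CD127. Thymocytes were double-positive (adult, adult CD69+ and embryonic day 17) or fetal gamma delta cells (Vg2, Vg4) of high or low CD24. The fetal double-positive group is titled CD69-, and the title of the main adult one names no CD69. Age and CD69 selection cannot be told apart between them. The day 17 arrays carry an age of 5 weeks in the labels, and the adult ones 6 weeks. Groups of 1 array also hold FRC of a Cadherin 11 WT strain (C57BL/6J 129SJL) and spleen B1a cells, whose label gives T cell sort markers. All are bulk measurements, in which fewer cells of a type and less RNA per cell cannot be told apart.

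RefSeq promoter records were found for 8 of the 10 genes, all but Alox5ap and Alox15. The 250 bases before the start of 4 of them are shown because they stand at the main steps of both branches and the values below differ between cell types for each: the 5-lipoxygenase gene, the inducible cyclooxygenase, and the enzymes that close the prostaglandin D2 and E2 branches. Each runs 5′ to 3′ in the direction of the gene, from mouse build GRCm38.p6, and capitals mark matches on either strand to the ETS-type motif GAGGAA, the GC box GGGCGG or the C/EBP-type element TTNNGCAA.
Alox5, chr6:116461179-116461428, minus strand: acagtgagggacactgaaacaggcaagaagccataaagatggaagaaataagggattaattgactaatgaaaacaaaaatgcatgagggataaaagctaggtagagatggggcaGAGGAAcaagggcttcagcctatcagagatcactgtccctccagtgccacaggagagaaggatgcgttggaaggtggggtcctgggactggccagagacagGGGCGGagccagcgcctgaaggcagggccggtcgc
Ptgs2, chr1:150099781-150100030, plus strand: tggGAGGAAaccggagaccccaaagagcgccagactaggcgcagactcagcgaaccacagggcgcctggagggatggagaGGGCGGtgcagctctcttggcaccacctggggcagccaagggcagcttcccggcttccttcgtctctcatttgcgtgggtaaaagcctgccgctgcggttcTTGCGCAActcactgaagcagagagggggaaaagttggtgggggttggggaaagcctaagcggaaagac
Hpgds, chr6:65144731-65144980, minus strand: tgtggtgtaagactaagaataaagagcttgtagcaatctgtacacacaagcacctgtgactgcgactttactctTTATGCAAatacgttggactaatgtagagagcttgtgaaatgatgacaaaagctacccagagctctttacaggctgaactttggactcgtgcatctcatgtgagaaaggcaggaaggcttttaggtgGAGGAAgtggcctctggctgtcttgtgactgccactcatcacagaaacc
Ptges, chr2:30903298-30903547, minus strand: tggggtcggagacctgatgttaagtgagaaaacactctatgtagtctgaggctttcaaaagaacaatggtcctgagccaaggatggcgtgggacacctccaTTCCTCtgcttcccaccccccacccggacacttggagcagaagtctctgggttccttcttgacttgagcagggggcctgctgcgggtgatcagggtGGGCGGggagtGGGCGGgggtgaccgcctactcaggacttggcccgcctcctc
In all, 7 short motifs were searched on both strands in these windows, with the 50 bases after the start left out. GAGGAA, bound by ETS-family factors such as PU.1, was in 7 of the 8 windows and in 23.3% of 32851 promoters. Other sequences that ETS factors bind were not searched. GGGCGG was in 4 of 8 (Alox5, Alox12, Ptgs2 and Ptges) and in 32.7% of all. TTNNGCAA was in Hpgds and Ptgs2 and in 9.56% of all, and in Ptgs2 the same 8 bases match on both strands. The TATA box TATAAA was in none of the 8 and in 12.4% of all promoters. The E-box CACGTG was in none and in 6.02% of all, the CRE core CGTCA in none and in 17.8%, and the GATA element AGATAA in none and in 9.99%. A match is a run of letters and not a shown binding site.

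Across the 65 groups the genes differed in how far their group means ranged. Alox15 ranged over 7.81 log2 units between its lowest and highest group, Ptgs2 over 7.63, Alox5 over 6.88, Alox5ap over 6.82 and Hpgds over 6.48, all beyond the range of 97.3% of all genes or more. Ltc4s ranged over 5.09, Ptges over somewhat less, Lta4h over 2.51 and Alox12 over 2.01. Lta4h was the only one of the 9 that was tested in all 41 comparisons, while Alox12 passed the filter on dim probe sets in none. Group means of Alox5 and Alox5ap correlated at r = 0.81, Alox15 and Ptges at 0.68, and Ptgs2 and Ptges at 0.64 over the 65 groups. Lta4h correlated negatively with the other 8, between -0.58 and -0.19. These correlations are a description, since related cell types share most of their expressed genes.

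**Figure D1:**
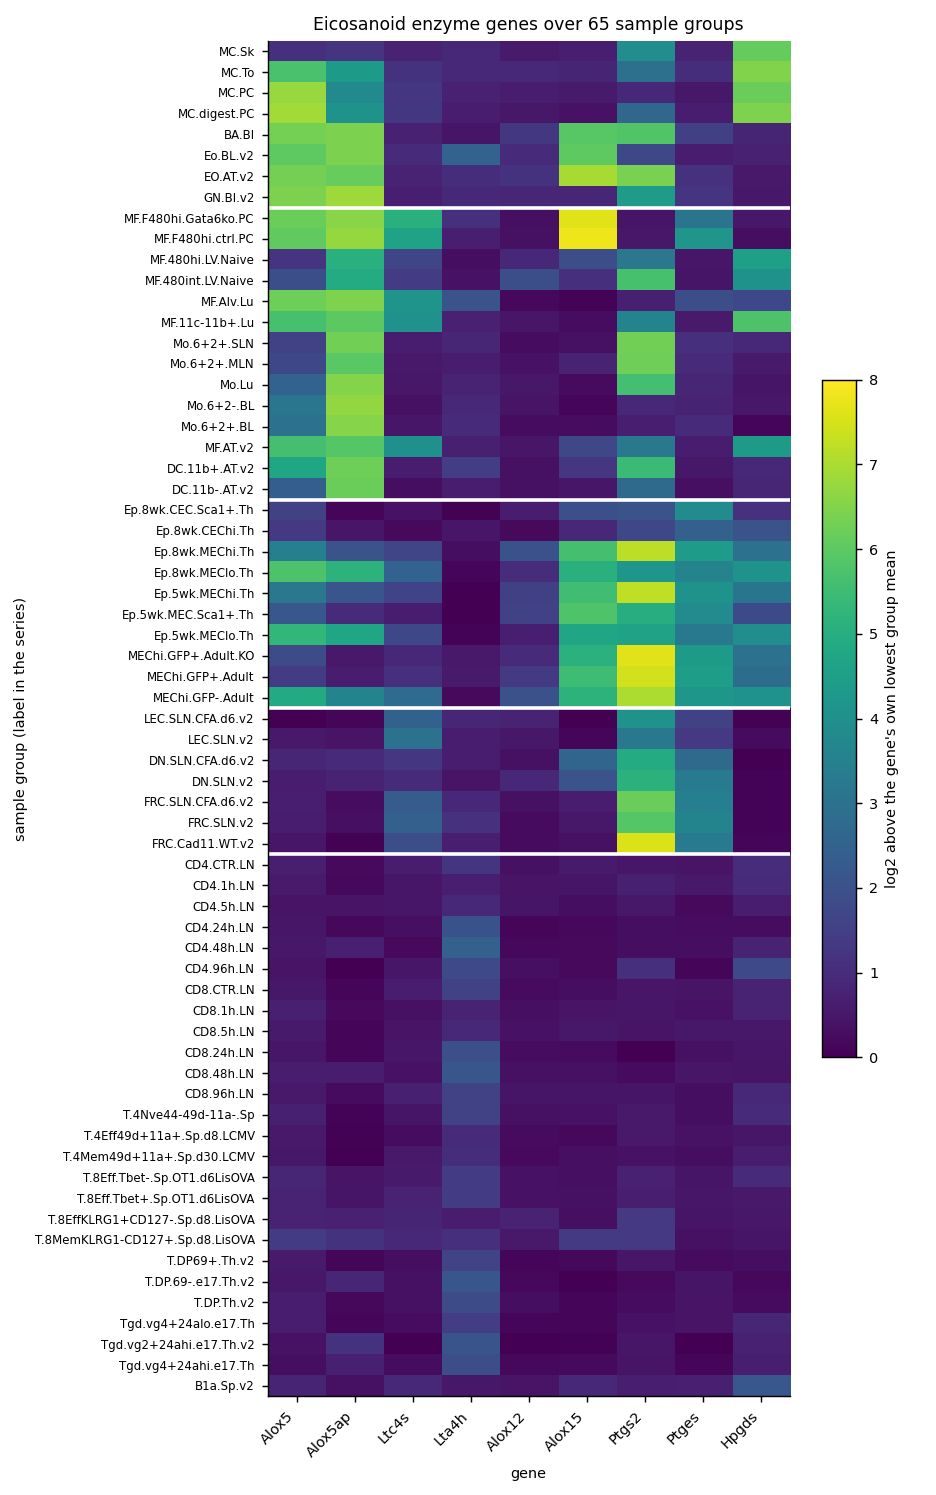
Each row is 1 of the 65 sample groups and each column 1 enzyme gene, coloured by the group mean in log2 units above that gene's own lowest group mean, so that colours compare groups within a column and not genes. White lines separate, from the top, granulocytes and mast cells, phagocytes, thymic epithelium, lymph node stroma, and lymphocytes. Alox15 is brightest in peritoneal macrophages (13.61 log2 in controls), Ptgs2 in medullary epithelium (13.11 in GFP+ KO cells), and Hpgds in mast cells.

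Alox5, the enzyme that commits arachidonic acid to leukotrienes, was highest by mean, among groups of more than 1 array, in peritoneal mast cells, with 4873, 6608, 3112 and 6602 intensity units. Their range overlapped that of the next group, blood neutrophils, which had 4564, 3753, 3826 and 3995. Alveolar macrophages (3505, 3899 and 3321) and peritoneal macrophages labelled Gata6ko (3584, 3294 and 3567) followed, and they overlapped each other. Blood eosinophils had 3510, 2128 and 3763, and the single arrays of basophils and fat eosinophils had 3804 and 3784. At the low end, the lymphoid and lymph node stromal arrays lay between 46.98 and 185.6. The top value of these belongs to replicate 1 of the KLRG1- CD127+ CD8 cells, an array that stands apart in Alox15 as well and is described with that gene.

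The largest difference in Alox5 was between mast cells of 2 sites. Skin mast cells had 89.34, 102.1 and 103.8, against the peritoneal values above, a log2 difference of -5.69 ± 0.23 (SE, adjusted p = 1.3e-11). Alox5ap, whose product presents arachidonic acid to 5-lipoxygenase, ran the same way, with 117.4, 134.9 and 200 in skin mast cells against 843.6, 985.8, 930.9 and 867.8 in peritoneal ones (-2.62 ± 0.16, adjusted p = 1.4e-09). Neither gene's groups overlapped. The single muscle array had 2431 for Alox5 and 1306 for Alox5ap, and the single peritoneal digest array had 5545 and 1101.

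The mast cell markers (7 of 7 measured, Cpa3 and Kit among them) summed to 41910 to 45000 in skin mast cells and 49920 to 56340 in peritoneal ones. Summed markers of macrophages were 1167 to 1237 in skin against 331.4 to 408.5 in the peritoneum, and of fibroblasts 2218 to 2435 against 662.2 to 904, so both non-mast sums were higher in skin. Of the macrophage list this was Cd68 (973.4 to 1050 in skin against 145.6 to 241.3), with Adgre1 at 40.1 to 40.6 against 48.25 to 55.27, and of the fibroblast list Pdgfrb (1475 to 1706 against 94.16 to 128.6), with Pdgfra at 97.58 to 120.3 against 81.16 to 100.8. Their part in the difference was not tested. Without the 2 MC.PC arrays labelled as blood, every call between mast cells and from mast cells to eosinophils was the same.

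Blood neutrophils exceeded blood monocytes in Alox5, with the values above against 407 and 416.9 in monocytes (3.29 ± 0.27, adjusted p = 2.5e-08). Alox5ap showed no such call, with 6979 to 7585 in neutrophils against 6786 and 6561 in monocytes (0.12 ± 0.18, adjusted p = 0.63). Peritoneal mast cells lay above eosinophils in Alox5 by 0.74 ± 0.23 (adjusted p = 0.015), but the groups overlapped. The call was lost without eosinophil array 3 (0.48, adjusted p = 0.10), without MC.PC array 4 (0.61, adjusted p = 0.051) and without MC.PC array 6 (0.61, adjusted p = 0.050). Alox5ap was lower in mast cells than in eosinophils, whose arrays had 5574, 5044 and 5843 (-2.60 ± 0.16, adjusted p = 4.4e-10).

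**Figure D2:**
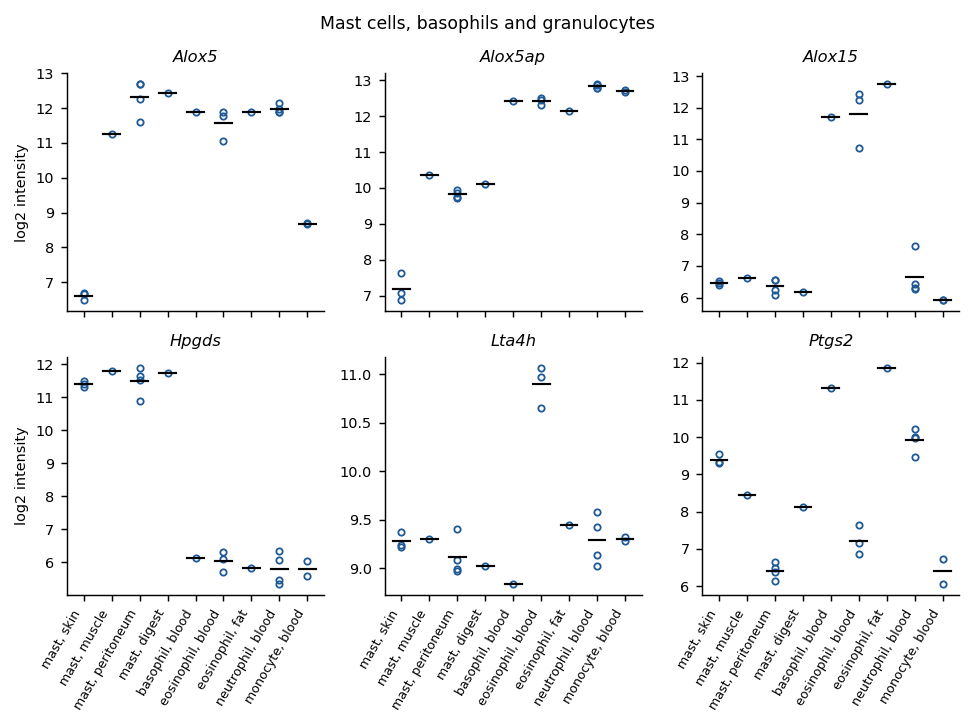
Points are arrays and bars are group means of log2 intensity, in 1 panel per gene with its own axis, for mast cells of 3 sites and a peritoneal digest, basophils, eosinophils, neutrophils and blood monocytes. Skin mast cells lie with the lowest Alox5 (89.34 to 103.8) beside peritoneal mast cells at 3112 to 6608, while Hpgds is alike high in all mast cell arrays (1913 to 3806). Alox15 is high only in the basophil and eosinophil arrays of this set (1704 to 6877).

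Among macrophages Alox5 separated the liver groups from the others. F4/80 high liver macrophages, the gate that holds Kupffer cells, had 135.3, 94.64 and 101.3, against 3505, 3899 and 3321 in alveolar macrophages (-5.03 ± 0.18, adjusted p = 2.6e-19). Control peritoneal macrophages had 3128, 3046 and 3205, 4.84 ± 0.18 above the same liver arrays (adjusted p = 1.2e-18). These controls were of mixed background and 9 weeks, and the liver arrays of 6 weeks. Site therefore cannot be told apart from background and age in any peritoneal against liver difference, for this or the genes below. Alox5ap differed in the same directions by less, -1.38 ± 0.11 for liver against alveolar (2386, 2100 and 2019 against 5510, 6109 and 5264) and 1.67 ± 0.11 for peritoneum against liver. In each of these the groups did not overlap. The F4/80 high cells were also below F4/80 intermediate liver macrophages, which had 141.8, 233.3 and 173.3 for Alox5 (-0.72 ± 0.18, adjusted p = 0.0050). That call was lost without intermediate array 2 (-0.52, adjusted p = 0.058). Summed dendritic cell markers (5 of 5 measured) were 538.7 to 726.4 in F4/80 high against 2676 to 3637 in intermediate cells, most of all Cd209a (84.01 to 170.3 against 1122 to 1884), and Kupffer cell markers (4 of 4) 26910 to 27470 against 17770 to 18540. Endothelial markers (5 of 5) summed to 12400 to 14150 in F4/80 high and 14170 to 19070 in intermediate cells. That sum was 359.3 to 415.7 in alveolar and 479.5 to 652.4 in control peritoneal macrophages. Platelet markers (4 of 5) were 745.9 to 855 in F4/80 high and 788.3 to 2013 in intermediate cells. The part of all these transcripts in the liver results, among them the differences of Alox5 and Ptgs2 between the gates, was not tested.

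In lung, CD11b+ macrophages had 2292, 2186 and 2823 for Alox5, against 297.6, 285.8 and 229.3 in lung monocytes (3.17 ± 0.18, adjusted p = 2.6e-14). Alox5ap was slightly lower in those macrophages than in the monocytes (-0.54 ± 0.11, adjusted p = 1.7e-04). Of 4 platelet markers measured among 5 listed, the CD11b+ macrophages were high in Pf4, at 10620 to 11660 against 52 to 55.46 in lung monocytes, and Ppbp was 211.1 to 298.9 against 27.85 to 30.89. Itga2b (111.3 to 143.7 against 114.3 to 128.8) and Gp9 (87.5 to 105.8 against 100.5 to 109.3) overlapped between these groups. The summed list was 11060 to 12160 in CD11b+ macrophages, against 303.1 to 312.9 in lung monocytes and 302.3 to 324.1 in alveolar macrophages. The endothelial list (5 of 5 measured) summed to 6895 to 8282, against 432.7 to 458.3 in lung monocytes and 359.3 to 415.7 in alveolar macrophages, and of this Lyve1 alone was 6443 to 7850, while Pecam1 was lower than in monocytes (83.98 to 113.5 against 139.8 to 158.5). The part of these transcripts in the CD11b+ results was not tested. Alveolar macrophages exceeded CD11b+ macrophages modestly in Alox5 (0.56 ± 0.18, adjusted p = 0.012) and Alox5ap (0.47 ± 0.11, adjusted p = 6.1e-04). The Alox5 call was lost without CD11b+ array 2 or alveolar array 2 (adjusted p = 0.060 and 0.054), and the Alox5ap call in the fit of all groups (adjusted p = 0.055). Skin-draining node monocytes, at 141.3, 119.5 and 163.4 for Alox5, were below lung monocytes (-0.94 ± 0.18, adjusted p = 9.7e-04).

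Fat CD11b+ dendritic cells had 1315, 1473 and 978.9 for Alox5, against 238.2 and 256.2 in CD11b- cells (2.32 ± 0.20, adjusted p = 3.8e-10), while Alox5ap gave no call (0.03 ± 0.12). Summed monocyte markers (3 of 4 measured) were 14760 to 19040 in the CD11b+ against 3680 and 3753 in the CD11b- cells, with Fn1 at 10370 to 12230 against 86.9 and 163.7 and Ccr2 overlapping (3209 to 4274 against 3464 and 3493). Macrophage markers (4 of 4) were 6076 to 8090 against 3308 and 3402, with Adgre1 at 1909 to 2991 against 56.91 and 74.6. The part of such cells in the differences of Alox5 and Ptgs2 was not tested. Fat macrophages had 1796, 2636 and 2797, above the CD11b+ dendritic cells by 0.93 ± 0.18 (adjusted p = 1.8e-04). Their Alox5ap was lower (-0.35 ± 0.11, adjusted p = 0.012), with overlapping groups. That call was lost without fat macrophage array 1 (adjusted p = 0.051), without dendritic array 3 (adjusted p = 0.084) and in the fit of all groups (adjusted p = 0.18).

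**Figure D3:**
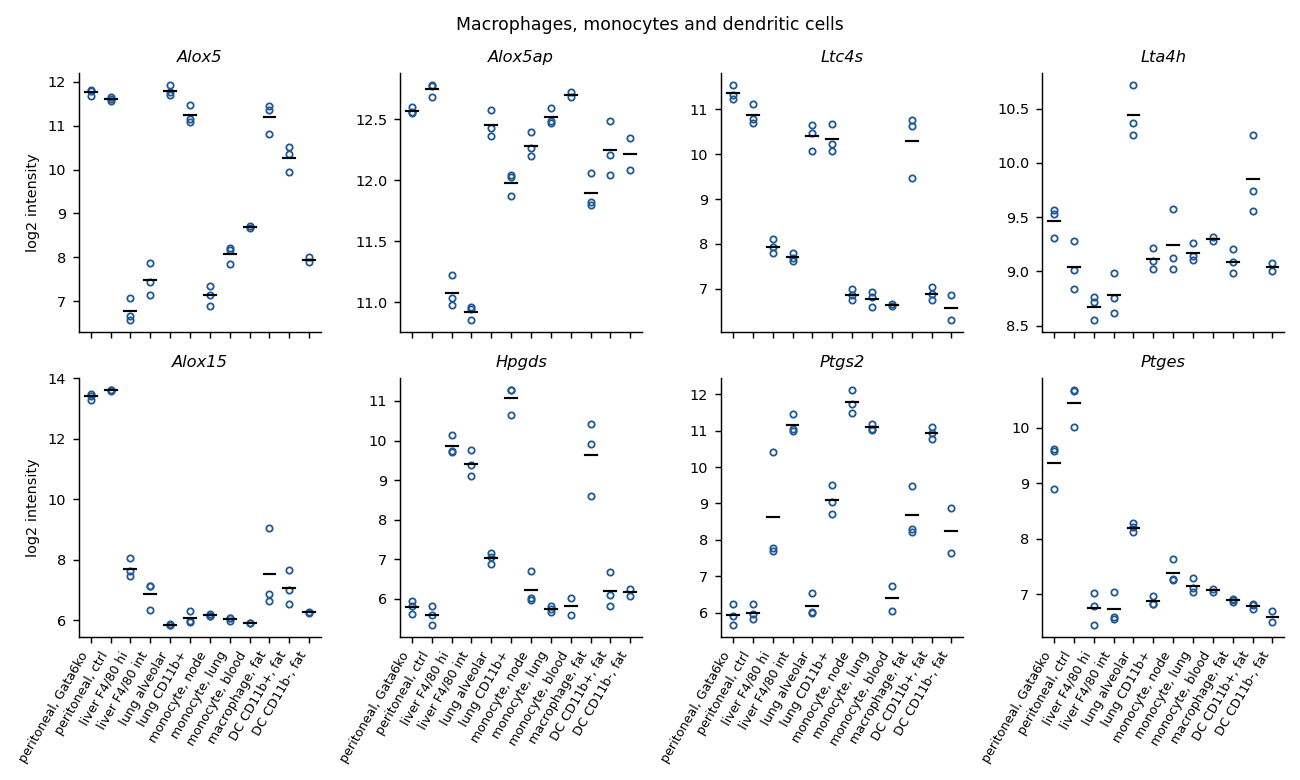
Points are arrays and bars are group means of log2 intensity, in 1 panel per gene with its own axis, for macrophages, monocytes and dendritic cells. The liver macrophage arrays are the lowest in Alox5 and Alox5ap among the macrophages shown, alveolar macrophages the highest in Lta4h (1222 to 1685), and peritoneal macrophages the highest in Alox15, Ltc4s and Ptges. Replicate 1 of F4/80 high liver macrophages (1369) and of fat macrophages (718.3) lie above the other arrays of their groups in Ptgs2.

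In thymic medullary epithelium the pair was high in the subsets labelled low and GFP-. MEChi cells of 8 weeks had 582.1 and 453.6 for Alox5, against 2834 and 2344 in MEClo cells (-2.33 ± 0.25, adjusted p = 1.9e-05). For Alox5ap MEChi had 353 and 202.4, against 2701 and 1956 in MEClo (-3.10 ± 0.27, adjusted p = 4.6e-06). At 5 weeks, Sca1+ medullary cells had 266.1 and 166.9 for Alox5, against 2097 and 1603 in MEClo (-3.12 ± 0.25, adjusted p = 1.4e-05), and their Alox5ap was lower (-3.71 ± 0.27, adjusted p = 8.7e-06). GFP+ cells had 125.5, 114.5 and 139.2 for Alox5, against 997.9, 1493 and 1788 in GFP- cells (-3.46 ± 0.27, adjusted p = 5.0e-06). Alox5ap in the same cells was 116.5, 74.8 and 116.1, against 704.2, 746.4 and 892.2 (-2.95 ± 0.18, adjusted p = 1.4e-06). None of these groups overlapped, and KO and unmutated GFP+ cells showed no call in either gene (0.41 ± 0.27 for Alox5).

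Markers of tuft cells, a chemosensory epithelial type that also occurs in the thymic medulla, moved with these subsets. Summed over all 8 listed, Pou2f3 and Trpm5 among them, they were 3502 and 2756 in MEChi against 13870 and 13260 in MEClo at 8 weeks. They were 1749 and 1471 in Sca1+ cells against 13980 and 9468 in MEClo at 5 weeks, and 983 to 1087 in GFP+ against 5509 to 7727 in GFP- cells. The part of tuft cells in the results for Alox5, Alox5ap, Ltc4s and Hpgds was not tested. Cortical CEChi cells, with a tuft sum of 718.6 and 841.5, were lower than MEChi in Alox5 (-2.11 ± 0.25, adjusted p = 2.6e-05) and Alox5ap (-1.58 ± 0.27, adjusted p = 5.6e-04). Their summed T cell markers (3 of 4 measured) were 3025 and 2404, against 464.3 and 488.3 in MEChi, and their part was not tested either.

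**Figure D4:**
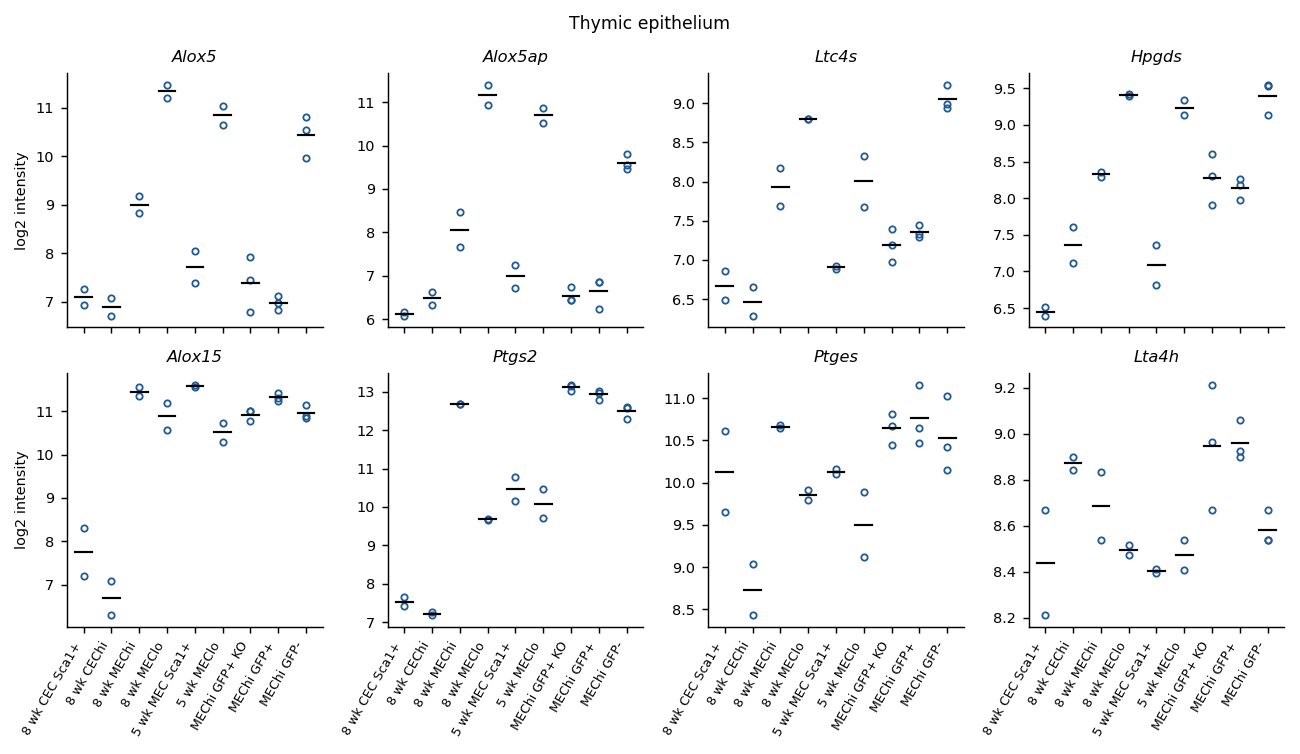
Points are arrays and bars are group means of log2 intensity, in 1 panel per gene with its own axis, for cortical (CEC) and medullary (MEC) thymic epithelium of 5 or 8 weeks and for the GFP-sorted medullary cells. Alox5, Alox5ap, Ltc4s and Hpgds are highest in MEClo and GFP- cells, and Ptgs2 is highest in the KO GFP+, GFP+ and GFP- cells and in MEChi (5035 to 9295). Alox15 lies between 1247 and 3134 in all medullary arrays and between 78.28 and 314.9 in the cortical ones.

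Leukotriene A4 hydrolase, which is made in most tissues, had its lowest array at 296.1 and its highest at 2175, the narrowest range but that of Alox12. Blood eosinophils were highest by mean, with 2011, 1608 and 2144, and overlapped CD4 cells after 48 h of culture (1566 and 2175). Eosinophils exceeded neutrophils (765.4, 564.1, 686.1 and 522) by 1.60 ± 0.16 (adjusted p = 4.1e-07), without overlap. Peritoneal mast cells (503.2, 676.5, 508.8 and 544.5) were below eosinophils (-1.78 ± 0.16, adjusted p = 7.2e-08). The single fat eosinophil array had 695.5, below the 3 blood arrays. In the thymic medulla GFP+ cells had 486.4, 477.6 and 533.5, against 372.2, 371.4 and 406.6 in GFP- cells (0.38 ± 0.13, adjusted p = 0.034), a call lost without any of 5 of the 6 arrays (adjusted p from 0.057 to 0.11).

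Among phagocytes Lta4h was highest in alveolar macrophages (1318, 1685 and 1222), against 521, 548.2 and 593.6 in CD11b+ lung macrophages (1.33 ± 0.16, adjusted p = 5.2e-08). F4/80 high liver macrophages had 435.6, 419.9 and 374.7, below alveolar macrophages (-1.77 ± 0.16, adjusted p = 1.7e-10). In fat, macrophages were lower than CD11b+ dendritic cells (-0.76 ± 0.16, adjusted p = 4.0e-04), which were above CD11b- cells (0.81 ± 0.18, adjusted p = 6.5e-04). In stroma, DN cells were below FRC (-0.72 ± 0.14, adjusted p = 0.0034), and so were LEC (-0.48 ± 0.14, adjusted p = 0.022). The LEC call was lost when any of 3 of the 4 arrays was left out (adjusted p from 0.088 to 0.20).

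Lta4h was the only member above the dim-signal filter in the cultured T cells, and it moved in time. In CD4 cells it was 818.1 and 764 in controls, 543 and 521.3 at 1 h, 533.3 and 716.3 at 5 h, 1242 and 1504 at 24 h, 1566 and 2175 at 48 h, and 1129 in the single 96 h array. The rises at 24 h (0.79 ± 0.20, adjusted p = 0.0031) and 48 h (1.22 ± 0.20, adjusted p = 1.6e-04) were called. The 1 h difference was at the threshold (-0.57 ± 0.20, adjusted p = 0.050) and the 5 h one was not called (-0.36 ± 0.20, adjusted p = 0.20). In CD8 cells the controls had 859.8 and 1183, followed by 557.1 and 600 at 1 h, 563.6 and 729.1 at 5 h, 1221 and 1389 at 24 h, 1398 and 1554 at 48 h, and 973.9 in the single 96 h array.

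The falls of Lta4h in CD8 cells at 1 h (-0.80 ± 0.20, adjusted p = 0.011) and 5 h (-0.65 ± 0.20, adjusted p = 0.019) were called, and the later differences were not (0.37 ± 0.20 at 24 h, adjusted p = 0.14, and 0.55 ± 0.20 at 48 h, adjusted p = 0.052). Both falls rest on control array 2: without it they were -0.57 (adjusted p = 0.17) and -0.42 (adjusted p = 0.22), and the rises at 24 h (0.60, adjusted p = 0.049) and 48 h (0.78, adjusted p = 0.028) passed. They were also lost without 1 h array 1 (-0.75, adjusted p = 0.090) and without 5 h array 1 (-0.47, adjusted p = 0.17). The CD8 and CD4 changes did not differ by an interaction test at any time (adjusted p from 0.50 to 1), the largest gap being -0.68 ± 0.28 at 48 h. All times of a cell type share the same 2 control arrays.

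**Figure D5:**
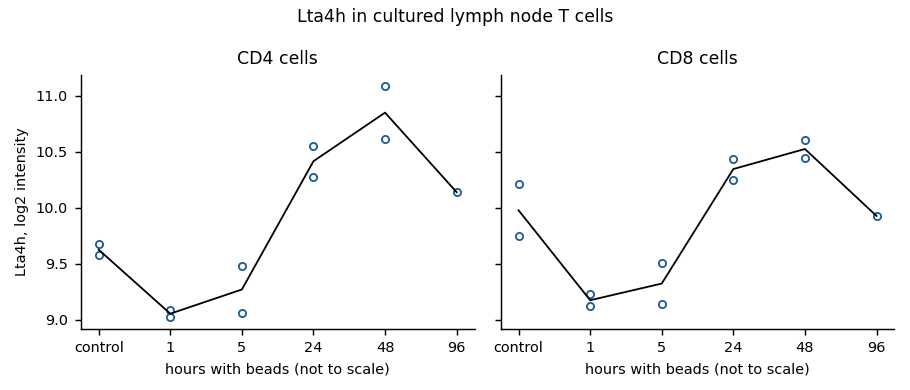
Points are arrays and lines join group means of Lta4h log2 intensity in CD4 (left) and CD8 (right) lymph node T cells, for controls and after 1, 5, 24, 48 and 96 h with beads, with times evenly spaced and not to scale. Both cell types lie lowest by mean at 1 h (521.3 to 600) and highest at 48 h (1398 to 2175), and the 96 h groups are single arrays.

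In spleen CD4 cells after LCMV, effectors had 606.5 and 688.9 for Lta4h, against 845.5 and 1166 in naive cells (-0.62 ± 0.17, adjusted p = 0.015). The call was lost without effector array 1 (-0.53, adjusted p = 0.12) or naive array 3 (-0.39, adjusted p = 0.20). Fetal double-positive thymocytes, titled CD69-, had 1541, 1433 and 1414, against 1273, 1172 and 1170 in adult ones not titled by CD69 (0.28 ± 0.09, adjusted p = 0.023). That call was lost under quantile normalization (0.19, adjusted p = 0.098), in the fit of all groups (adjusted p = 0.23), and without any of 3 single arrays (adjusted p from 0.068 to 0.088). Fetal Vg4 cells low in CD24 had 897.5 and 936.2, against 1458, 1235 and 1157 in those high in CD24 (-0.48 ± 0.10, adjusted p = 0.0022), a call lost in the fit of all groups (adjusted p = 0.056).

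Alox5ap was the other member tested in thymocytes. It was 128.9, 112.2 and 107.7 in fetal double-positive cells, against 82.56, 59.38 and 76.55 in adult ones (0.68 ± 0.12, adjusted p = 2.9e-04). In Vg4 cells low in CD24 it was 74.71 and 67.59, against 112.4, 107.4 and 93.37 in the high ones (-0.55 ± 0.14, adjusted p = 0.0073), a call lost without low array 2 (-0.48, adjusted p = 0.095) and in the fit of all groups (adjusted p = 0.16). These levels lie near the gene's lowest group mean of 6.00 log2. The filter keeps a gene by its brightest group, so at such levels a call toward that group is favoured. Of the 7 mast cell markers, Cpa3 was 284.2 and 348.6 in the low cells against 3991 to 4456 in the high cells, and Kit 123.7 and 139.5 against 414.2 to 450.3. Gata2 overlapped (77.9 and 84.16 against 75.33 to 84.57) and Fcer1a stayed at 20.07 and 20.63 against 16.17 to 18.46. The part of these transcripts was not tested.

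Ltc4s, the enzyme of the cysteinyl branch, was highest in macrophages of the peritoneum, lung and fat. Peritoneal macrophages labelled Gata6ko had 2545, 2395 and 2987, against 2233, 1756 and 1666 in controls, and these were the highest and second highest groups (0.49 ± 0.23, adjusted p = 0.24). Alveolar macrophages (1430, 1597 and 1076), CD11b+ lung macrophages (1206, 1082 and 1636) and fat macrophages (705.4, 1750 and 1580) came next and overlapped one another. F4/80 high liver macrophages had 277.5, 221.1 and 242.5, below alveolar macrophages (-2.46 ± 0.23, adjusted p = 3.2e-10), and control peritoneal macrophages were above them by 2.93 ± 0.23 (adjusted p = 1.2e-11).

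CD11b+ lung macrophages exceeded lung monocytes (96.15, 112.1 and 120.8) in Ltc4s by 3.56 ± 0.23 (adjusted p = 2.8e-13). Fat macrophages exceeded fat CD11b+ dendritic cells (131.9, 118.4 and 107.7) by 3.39 ± 0.23 (adjusted p = 2.4e-12), and by 3.81 without macrophage array 1. Mast cells, known as a source of cysteinyl leukotrienes in tissue, lay low on this probe set, with 129.8, 149.1 and 127.3 in skin against 222.5, 175.4, 165.9 and 183.8 in the peritoneum (-0.46 ± 0.14, adjusted p = 0.023). The call between them was lost without MC.PC array 0 (-0.37, adjusted p = 0.063), without skin array 2 or 4 (adjusted p = 0.088 and 0.091), and under quantile normalization (-0.40, adjusted p = 0.068). Blood eosinophils had 156.9, 137.6 and 153.9, and no call against neutrophils (0.28 ± 0.14, adjusted p = 0.14).

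Outside the myeloid groups Ltc4s was called in stroma and epithelium. DN stroma had 136.1 and 167.8, against 384.1 and 461.1 in FRC (-1.48 ± 0.23, adjusted p = 8.2e-04). LEC had 485.5 and 818.4, with no call against FRC (0.58 ± 0.23, adjusted p = 0.078) that became one without LEC array 1 (0.96, adjusted p = 0.0095). GFP+ medullary cells had 156.2, 160.4 and 174.3, against 492.6, 510.7 and 603.5 in GFP- cells (-1.71 ± 0.13, adjusted p = 3.8e-06). MEChi cells were below MEClo (-0.86 ± 0.24, adjusted p = 0.013) and Sca1+ medullary cells below MEClo (-1.10 ± 0.24, adjusted p = 0.018). Both calls were lost without any of several single arrays (adjusted p from 0.060 to 0.14 and from 0.081 to 0.11).

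Alox15, the mouse 12/15-lipoxygenase, had the widest range of all members. Peritoneal macrophages labelled Gata6ko had 11400, 9974 and 10980, against 12620, 12150 and 12620 in controls, which lay above all other arrays of the series (-0.21 ± 0.35, adjusted p = 0.83). The Gata6 probe set itself was not lower in the Gata6ko arrays (3047, 2568 and 3120, against 2832, 3221 and 2553 in controls). Which part of the gene was deleted and where the probes lie is not stated, so this probe set does not check the label. The controls exceeded F4/80 high liver macrophages, which had 196.4, 268.5 and 174.8, by 5.89 ± 0.35 (adjusted p = 4.8e-14). The liver cells were in turn 1.85 ± 0.35 above alveolar macrophages (57.98, 58.72 and 57.68, adjusted p = 7.8e-05).

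Eosinophils were the other high blood group. They had 5487, 1704 and 4898, against 79.36, 76.81, 86.45 and 197.1 in neutrophils (5.15 ± 0.35, adjusted p = 3.0e-09), and 5.47 above them without neutrophil array 7. Peritoneal mast cells had 94.21, 67.56, 94.3 and 75.72, below eosinophils (-5.45 ± 0.35, adjusted p = 9.9e-10). The single fat eosinophil array had 6877 and the single basophil array 3341. The basophil array was high in the basophil gene Mcpt8 (2731). Of the 5 eosinophil genes listed, 2 lay over the median in it, and Il5ra was low (36.68). The whole eosinophil list summed to 2739 in that array, against 10190 to 13240 in blood eosinophils and 826.7 to 1130 in neutrophils. The summed peritoneal macrophage markers (3 of 4 measured) of blood eosinophils were 1721, 2441 and 3041, against 380.1 to 721.9 in neutrophils, mostly from Prg4, at 1138, 1938 and 2317 in eosinophils. Gata6 was 116 to 142.1 in eosinophils against 88.53 to 104.4 in neutrophils, and 2553 to 3221 in control peritoneal macrophages. Summed neutrophil markers (5 of 5 measured) were 9697 to 10540 in blood eosinophils, 46560 to 50810 in neutrophils and 1520 to 1678 in blood monocytes. The part of cells of either list was not tested, for Alox15 or for the eosinophil results of the other members.

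Single arrays stood apart in Alox15 and also had the highest Prg4, a gene of the peritoneal macrophage list, in their groups. Replicate 1 of KLRG1- CD127+ CD8 cells had 692.3, against 56.12 and 74.4 in the other arrays of its group, with a summed peritoneal list of 2939 against 630.6 and 584. Replicate 1 of fat macrophages had 534.9, against 100.1 and 117.9, with 1515 against 330.2 and 491.1 for that list. Neutrophil array 7 had 197.1, against 76.81 to 86.45, with 721.9 against 380.1 to 481.9. The other 2 genes of the list were low in all arrays of these groups beside control peritoneal macrophages, with Gata6 from 81.5 to 117.6 (KLRG1- cells), 85.14 to 95.62 (fat) and 88.53 to 104.4 (neutrophils), and Icam2 from 459.3 to 495.3, 119.7 to 164.3 and 221.5 to 289.6, against 2553 to 3221 and 2143 to 2682 in the macrophages. KLRG1+ CD127- cells, at 87.28 and 54.9, gave no call for Alox15 against the KLRG1- group (-1.04 ± 0.65, adjusted p = 0.45), and without replicate 1 the gene passed no filter there. The fat macrophage difference against CD11b+ dendritic cells was 0.47 ± 0.35 with all arrays and -0.29 without array 1, with no call in either, but 0.91 without array 3 (adjusted p = 0.044). Monocyte markers of fat macrophage array 1 summed to 17430, against 7400 and 8355 in arrays 3 and 4 and 14760 to 19040 in CD11b+ dendritic cells. Its dendritic (4839 against 7543 and 7523), Kupffer (660.2 against 2331 and 2463) and macrophage sums (11280 against 13640 and 14240) were lower. The part of such cells was not tested. Without fat macrophage array 1, calls appeared in the shared phagocyte fit for F4/80 high against intermediate liver macrophages (0.85, adjusted p = 0.0026) and CD11b+ against CD11b- dendritic cells (0.79, adjusted p = 0.0061).

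In the thymus Alox15 marked the medulla. Cortical CEChi cells had 78.28 and 136.3, against 2601 and 3011 in MEChi cells (-4.76 ± 0.35, adjusted p = 6.6e-07). MEChi and MEClo (1523 and 2338) gave no call (0.57 ± 0.35, adjusted p = 0.24). GFP+ cells had 2529, 2727 and 2396, against 1894, 1822 and 2252 in GFP- cells (0.36 ± 0.11, adjusted p = 0.022), and KO GFP+ cells had 2039, 2040 and 1743, below GFP+ cells (-0.40 ± 0.11, adjusted p = 0.033). The GFP call was lost under quantile normalization (0.22, adjusted p = 0.099), in the fit of all groups (adjusted p = 0.48) and without any of 3 arrays, and the KO call in the fit of all groups (adjusted p = 0.56) and without any of 5 of its 6 arrays. In lymph nodes, DN stroma had 249.6 and 209.1, against 75.34 and 83.83 in FRC (1.52 ± 0.24, adjusted p = 7.5e-04).

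Alox12, the platelet-type 12-lipoxygenase, stayed between 29.07 and 146.2 over all arrays and entered no test. Its highest arrays were F4/80 intermediate liver macrophages (136.1, 146.2 and 85.6), GFP- medullary cells (125, 109 and 138.5) and MEChi (129.8 and 121.9), whose ranges overlapped.

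Ptgs2, the cyclooxygenase that is induced in inflammation, was highest in medullary epithelium. KO GFP+ cells had 8249, 9088 and 9295, GFP+ cells 8333, 7986 and 7060, and GFP- cells 6253, 6120 and 5035. GFP+ exceeded GFP- cells by 0.43 ± 0.11 (adjusted p = 0.0099), a call lost under quantile normalization (0.28, adjusted p = 0.092) and in the fit of all groups (adjusted p = 0.33). MEChi cells had 6526 and 6515, against 831.1 and 810.6 in MEClo (2.99 ± 0.24, adjusted p = 2.5e-06), the opposite direction to Alox5 and Alox5ap in the same arrays. Cortical CEChi cells had 145.4 and 153.3, below MEChi (-5.45 ± 0.24, adjusted p = 2.5e-08), the largest difference in the epithelial comparisons among the 8 members tested there.

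In monocytes Ptgs2 differed between groups from different sites, and site cannot be told apart here from how each tissue was handled. Lung monocytes had 2078, 2333 and 2120, against 66.34 and 106 in blood monocytes (4.70 ± 0.50, adjusted p = 6.5e-07), and no other member was called in that comparison, where 2.22% of all tested probe sets were higher. Skin-draining node monocytes had 3432, 4476 and 2867, with no call against lung monocytes (0.70 ± 0.45, adjusted p = 0.42). The single arrays of mesenteric node and of the blood monocytes titled Mo.6+2+ had 3326 and 70.76. CD11b+ lung macrophages had 418.6, 523.8 and 732.4, below lung monocytes (-2.00 ± 0.45, adjusted p = 6.0e-04), and alveolar macrophages (65.21, 63.57 and 93.36) were below CD11b+ macrophages (-2.90 ± 0.45, adjusted p = 4.2e-06).

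Ptgs2 varied most within the F4/80 high liver group, whose arrays had 1369, 220.9 and 208.4, against 2809, 2110 and 2035 in F4/80 intermediate cells (-2.53 ± 0.45, adjusted p = 1.1e-04). Without the high array 1 this was -3.42 (adjusted p = 3.1e-08). That array also moved the difference of liver against alveolar macrophages, 2.45 ± 0.45 with it and 1.56 without, and of control peritoneal (56.34, 62.03 and 74.83) against liver macrophages, -2.64 ± 0.45 with it and -1.75 without. All 3 stayed calls. Summed Kupffer cell markers (4 of 4) of the array were 27470, against 27440 and 26910 in the others of its group, and summed neutrophil markers 823.8 against 806.4 and 767.9.

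In fat, macrophages had 718.3, 314.3 and 298.5 for Ptgs2, against 1747, 1969 and 2192 in CD11b+ dendritic cells (-2.27 ± 0.45, adjusted p = 2.3e-04), and -2.68 without macrophage array 1. The CD11b+ cells exceeded CD11b- cells (469.1 and 198.7) by 2.68 ± 0.50 (adjusted p = 1.1e-04), by 3.30 without CD11b- array 1 and by 2.06 without array 3. Skin mast cells had 635.3, 744.6 and 641.3, against 89.07, 82.51, 100.7 and 70.82 in peritoneal ones (2.98 ± 0.22, adjusted p = 1.4e-08). The single peritoneal digest array had 280.2 and the muscle array 348.2, both above the 4 undigested peritoneal arrays. Blood neutrophils had 1192, 1023, 1007 and 700.2, above blood monocytes by 3.52 ± 0.24 (adjusted p = 4.0e-09). Blood eosinophils had 115.5, 199 and 143, below neutrophils (-2.70 ± 0.22, adjusted p = 2.6e-08), and peritoneal mast cells were below eosinophils (-0.81 ± 0.22, adjusted p = 0.0050), while the single fat eosinophil array had 3713.

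Among stromal cells Ptgs2 was 515.9 and 333.4 in LEC, against 1562 and 4412 in FRC (-2.66 ± 0.40, adjusted p = 3.1e-04). The spread of the FRC arrays moved this to -3.41 without array 1 and -1.91 without array 2. DN cells had 1436 and 1702, with no call against FRC (-0.75 ± 0.40, adjusted p = 0.17) that became one without FRC array 1 (-1.50, adjusted p = 0.0053). FRC after CFA had 3072 and 3483, with no call against untreated FRC (0.32 ± 0.40, adjusted p = 0.75). In untreated stroma, summed fibroblast markers (5 of 5 measured) were 26000 and 24790 in FRC, 19150 and 15630 in DN cells, and 3175 and 3164 in LEC. Endothelial ones (5 of 5) were 1455 and 776.4 in FRC, 2987 and 1596 in DN cells, and 25760 and 24990 in LEC. The part of mixed cells in the stromal results was not tested.

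Ptges, the inducible prostaglandin E synthase, was highest by mean in GFP+ medullary cells (2294, 1608 and 1416), and its next 4 groups overlapped in turn, among them control peritoneal macrophages. Macrophages labelled Gata6ko had 780.4, 476.9 and 766.3, against 1649, 1032 and 1615 in controls (-1.09 ± 0.18, adjusted p = 1.5e-04), without overlap. It was the only member called there, where 1.75% of all were lower, and the difference lay between -1.31 and -0.86 when an array of either group was left out. Of 5 alveolar macrophage markers, Marco was 693.9 to 979.5 in the Gata6ko arrays against 117.6 to 160.4 in controls and Chil3 58.95 to 63.35 against 18.52 to 30.83, while Siglecf (90.77 to 110 against 105.5 to 146.9) and Fabp1 overlapped and Car4 was lower (39.91 to 53.54 against 57.57 to 60.85). Of 5 endothelial markers, Lyve1 was 2174 to 2472 against 99.4 to 254.5 and the other 4 overlapped. The part of these transcripts was not tested.

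Control peritoneal macrophages exceeded F4/80 high liver macrophages (87.4, 110.7 and 129.8) in Ptges by 3.70 ± 0.18 (adjusted p = 3.7e-16). Alveolar macrophages had 313, 294.9 and 277.3, above CD11b+ lung macrophages (125.1, 113.2 and 113.9) by 1.33 ± 0.18 (adjusted p = 4.5e-07), and liver macrophages were below alveolar ones (-1.45 ± 0.18, adjusted p = 8.4e-08). LEC had 209.4 and 184.2, against 792.7 and 1161 in FRC (-2.29 ± 0.24, adjusted p = 2.3e-05). CEChi cells had 344.4 and 523.4, against 1602 and 1638 in MEChi (-1.93 ± 0.32, adjusted p = 3.6e-04), and Sca1+ cortical cells exceeded CEChi with 802.8 and 1565 (1.40 ± 0.32, adjusted p = 0.013). The last call was lost without Sca1+ array 2 (0.92, adjusted p = 0.054) or CEChi array 1 (1.10, adjusted p = 0.10). Eosinophils were below neutrophils (-0.58 ± 0.13, adjusted p = 0.0016), and neutrophils above monocytes by 0.41 ± 0.15 (adjusted p = 0.031), a call lost without neutrophil array 5 (0.35, adjusted p = 0.078), without either monocyte array (adjusted p = 0.17 and 0.12) and in the fit of all groups (adjusted p = 0.086).

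Hpgds, the glutathione-dependent prostaglandin D synthase of blood and connective tissue cells, was high in all mast cell arrays. Skin mast cells had 2516, 2882 and 2716, against 1913, 3186, 2967 and 3806 in peritoneal ones (-0.09 ± 0.25, adjusted p = 0.85), with overlapping groups. The single muscle and digest arrays had 3520 and 3421. Peritoneal mast cells exceeded eosinophils, which had 79.05, 69 and 52.32, by 5.45 ± 0.25 (adjusted p = 1.5e-11).

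Among macrophages Hpgds divided the groups differently from Alox5. CD11b+ lung macrophages had 1605, 2473 and 2499, against 56.18, 51.14 and 53.66 in lung monocytes (5.32 ± 0.30, adjusted p = 1.7e-14). Alveolar macrophages had 117.7, 143.2 and 133.9, below CD11b+ macrophages (-4.03 ± 0.30, adjusted p = 3.2e-12). F4/80 high liver macrophages, low in Alox5, had 1122, 842.3 and 847.8 for Hpgds, above alveolar macrophages by 2.82 ± 0.30 (adjusted p = 4.2e-09). Control peritoneal macrophages, high in Alox5, had 40.71, 56.59 and 48.48, below the liver cells (-4.27 ± 0.30, adjusted p = 1.1e-12). With 32 added to each intensity the lung difference against monocytes was 4.67 and the peritoneal one -3.58, since the low groups lie near the gene's floor. Fat macrophages had 387.7, 971.1 and 1360, against 68.61, 56.63 and 103.2 in CD11b+ dendritic cells (3.44 ± 0.30, adjusted p = 4.2e-10), and 3.96 without macrophage array 1.

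In medullary epithelium Hpgds ran with Alox5 and Alox5ap. MEChi cells had 328.9 and 312.7, against 670.9 and 686.4 in MEClo (-1.08 ± 0.20, adjusted p = 0.0013), and GFP+ cells had 306.2, 252.7 and 289.8, against 559.9, 748.6 and 738.1 in GFP- cells (-1.26 ± 0.18, adjusted p = 2.1e-04). Sca1+ medullary cells (164.6 and 112.9) were below MEClo of 5 weeks of 562.1 and 646.4 (-2.14 ± 0.20, adjusted p = 5.9e-05). CEChi cells were below MEChi (-0.97 ± 0.20, adjusted p = 0.0020), and Sca1+ cortical cells below CEChi (-0.90 ± 0.20, adjusted p = 0.012), the last call being lost without CEChi array 2 (-0.66, adjusted p = 0.13).

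Counted by comparison, the members are read against the shares of all tested probe sets that were called higher and lower, given in that order in percent. In peritoneal mast cells against eosinophils 2 of 8 tested members were higher and 4 lower, where 32% and 19% of all were called. Skin against peritoneal mast cells gave 1 higher and 3 lower (11.2% and 16.7% of all), eosinophils against neutrophils 2 and 2 (16.6% and 21.7%), and neutrophils against monocytes 3 and 0 (15% and 26.5%). Alveolar against CD11b+ lung macrophages gave 4 higher and 2 lower (26.7% and 17%), CD11b+ macrophages against lung monocytes 3 and 2 (16.9% and 22.9%), lung against blood monocytes 1 and 0 (2.22% and 0.708%), and node against lung monocytes 0 and 1 (3.07% and 3.7%). F4/80 high liver against alveolar macrophages gave 3 higher and 5 lower of 8 (20.2% and 24.6%), liver high against intermediate 0 and 2 (7.94% and 8.8%), peritoneal against liver 5 and 2 (25.6% and 19%), Gata6ko against control 0 and 1 (4.38% and 1.75%), fat macrophages against dendritic cells 3 and 3 (17.5% and 17.2%), and fat CD11b+ against CD11b- cells 3 and 0 (13.9% and 22.3%).

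In epithelium, MEChi against MEClo gave 1 member higher and 4 lower of 8 tested (18.7% and 19.4% of all called), CEChi against MEChi 0 and 7 (25% and 22.9%), cortical Sca1+ against CEChi 1 and 1 (6.02% and 7.19%), and medullary Sca1+ against MEClo 0 and 4 (2.34% and 3.9%). MEClo of 8 against 5 weeks gave none (0.299% and 0.266%), with 1 member at an unadjusted p under 0.05. GFP+ against GFP- cells gave 3 higher and 4 lower (28.9% and 20.5%), and KO against GFP+ cells 0 and 1 (9.4% and 9.66%). Of 5 tested in stroma, 0 were higher and 3 lower in LEC against FRC (16.2% and 20.2%), and 1 higher and 2 lower in DN against FRC (12.3% and 21.6%). CFA gave no member call in FRC (0.00707% and 0%) or DN cells (0.0707% and 0.0212%), with 0 and 2 members at an unadjusted p under 0.05.

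The 1 member tested in culture, Lta4h, was not called in CD4 cells at 1 h (6.45% and 13.8% of all) or 5 h (19.5% and 11.9%), and was higher at 24 h (33.3% and 20.3%) and 48 h (24.7% and 10%). In CD8 cells it was lower at 1 h (5.05% and 9.53%) and 5 h (15.6% and 13.4%), and not called at 24 h (25.5% and 18%) or 48 h (15.1% and 10%). Of 5 tested in spleen T cells, 1 was lower in CD4 effectors against naive cells (12.4% and 7.82%). None was called in CD4 memory against effector cells (0.989% and 3.88%), Tbet- against Tbet+ CD8 cells (3.71% and 3.11%) or KLRG1+ against KLRG1- CD8 cells (1.22% and 2.42%), with 0, 0 and 1 at an unadjusted p under 0.05. The filter keeps a gene by its brightest group, so for a dim gene such as Alox5ap in thymocytes a call toward that group is favoured. Both members tested in thymocytes were higher in fetal against adult double-positive cells (24.2% and 11.7%) and lower in Vg4 cells low against high in CD24 (6.94% and 11.8%). Neither was called in CD69+ against all double-positive cells (19.2% and 21.1%) or Vg2 against Vg4 cells (0.21% and 0.564%), with 1 at an unadjusted p under 0.05 in each. The median difference of the members ran from -1.75 (CEChi against MEChi) to 2.30 (peritoneal against liver macrophages), where that of all probe sets was 0.07 and 0.05.

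Other genes of the pathway, 48 of 53 listed with a probe set of 1 symbol, were counted in the same way. In skin against peritoneal mast cells 3 of 36 tested were higher and 9 lower (11.2% and 16.7% of all probe sets, as above). Pla2g7, a lipase that cleaves platelet-activating factor, was lower (-6.21 ± 0.19, adjusted p = 1.9e-13), and so was Hpgd, which inactivates prostaglandins (-2.25 ± 0.17, adjusted p = 2.3e-08). In peritoneal mast cells against eosinophils 7 were higher and 16 lower (32% and 19% of all), led by Cyp4f18, which breaks down leukotriene B4 (-6.26 ± 0.25, adjusted p = 2.4e-12), and the thromboxane synthase Tbxas1 (-4.83 ± 0.27, adjusted p = 2.0e-10). Eosinophils against neutrophils had 12 higher and 4 lower (16.6% and 21.7%), with Ptgdr2, a prostaglandin D2 receptor, higher by 2.16 ± 0.21 (adjusted p = 3.0e-07). Neutrophils against monocytes had 7 higher and 9 lower (15% and 26.5%), with Hpgd lower (-5.59 ± 0.19, adjusted p = 8.4e-13).

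Of 33 such genes tested in phagocytes, alveolar against CD11b+ lung macrophages had 11 higher and 10 lower (26.7% and 17% of all), and liver against alveolar macrophages 13 and 10 (20.2% and 24.6%). Hpgd was lower in alveolar than in CD11b+ macrophages (-4.42 ± 0.19, adjusted p = 2.6e-17) and higher by 4.99 ± 0.19 in liver than in alveolar ones (adjusted p = 1.1e-18), as Hpgds was in the same comparisons. Peritoneal against liver macrophages had 10 higher and 16 lower (25.6% and 19%), with the leukotriene D4 dipeptidase Dpep2 higher by 5.19 ± 0.24 (adjusted p = 2.4e-16) and the prostacyclin synthase Ptgis by 2.18 ± 0.16 (adjusted p = 3.1e-12). Gata6ko against control macrophages had 5 higher and 3 lower (4.38% and 1.75%). The prostaglandin E2 receptor gene Ptger4 was lower (-1.37 ± 0.17, adjusted p = 2.5e-06), and Abcc1, an exporter of leukotriene C4, higher by 1.10 ± 0.14 (adjusted p = 8.3e-06). Lung against blood monocytes had none of 33 called (2.22% and 0.708%), beside the large difference in Ptgs2.

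In MEChi against MEClo 16 of 31 tested were higher and 6 lower (18.7% and 19.4% of all), with Alox12b, an epidermal lipoxygenase, higher by 2.61 ± 0.17 (adjusted p = 5.4e-07) and Ptgds, the other prostaglandin D synthase, by 2.51 ± 0.14 (adjusted p = 2.3e-07), while Hpgd was lower (-2.68 ± 0.21, adjusted p = 2.1e-06). KO against GFP+ cells had 3 of 28 higher and 6 lower (9.4% and 9.66%), and the same Alox12b (-3.20 ± 0.19, adjusted p = 5.4e-07) and Ptgds (-2.25 ± 0.13, adjusted p = 4.9e-07) were the largest falls. In LEC against FRC 2 of 29 were higher and 17 lower (16.2% and 20.2%), with the cytosolic phospholipase Pla2g4a, which releases arachidonic acid, lower (-4.24 ± 0.14, adjusted p = 1.1e-08). CD4 effectors against naive cells had 4 of 21 higher and 4 lower (12.4% and 7.82%), and the cysteinyl leukotriene receptor gene Cysltr2 was higher by 3.97 ± 0.26 (adjusted p = 6.6e-09). In culture Ggt5, which converts leukotriene C4 to D4, was among the largest differences at all 4 times and in both cell types, with differences from -2.20 (CD4, 24 h) to -0.83 (CD8, 1 h).

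The genes whose group means ran most like each member over the 65 groups, among 14705 searched, were taken by Pearson correlation. They were Mctp1 for Alox5 (0.821), Ccl6 and Spi1 for Alox5ap (0.928 and 0.906), Pf4 for Ltc4s (0.787), and Cep152 for Lta4h (0.764). For Alox15 the first was Serpinb2 (0.912), for Hpgds Kcnq1 (0.869), for Ptgs2 Cxcl10 and Cxcl9 (0.810 and 0.808), and for Ptges Sfrp1 (0.908). For Alox12 the first were C4bp and Apoc3 (0.853 and 0.850). These are descriptions over groups that share cell types and carry no test.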

How the data were processed

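Per the labels' protocols, total RNA of sorted cells was extracted in TRIzol and hybridised to Affymetrix arrays. The deposited values are linear intensities, 1 per probe set and array, made by the authors with Affymetrix Power Tools and RMA, per the submitters' processing notes, which name no version. Whether all arrays were normalized together is not stated, and no slide or scan date was used. Of 24922 probe sets, 21425 had 1 gene symbol in the platform annotation, 1399 several and 2098 none, and only the first were named. Levels of different genes rest on different probe sets and are not compared.

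Values were taken to log2 of the deposited intensities, and 41 comparisons over 133 arrays were fitted in 8 sets of related groups with limma 3.58.1 (lmFit and eBayes, two-sided, R 4.3.3, data.table version 1.17.8), with a mean per group and no covariate. Dim probe sets were left out: the brightest group had to average at least the median value of its set (50th percentile). Benjamini-Hochberg adjustment of the p-values ran over all tested probe sets, within a comparison, and a call is an adjusted p under 0.05. The fit was tested on simulated data. Alternatives were all groups in one fit, no filter, a filter at the 75th percentile, quantile normalization, 32 added before log2, a trended robust eBayes, replicate number as a block, leaving out each array, and leaving out 2 arrays.

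All 10 enzyme genes are named, with the 3 genes most like each member at most, and up to 4 called genes of the pathway lists per comparison by size. Members, gene lists and marker lists were chosen with earlier results of these data known. Same-numbered GFP+ and GFP- arrays deviated together (r from 0.14 to 0.40 over probe sets, 3 shared numbers), but the labels do not give pairs. Their main fit took no pairs, and replicate number as a block was run only as an alternative. Sequences and motif shares come from RefSeq promoter records of GRCm38.p6.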

Additional observations from a re-analysis of the deposited data

Results flagged for a closer look

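Alox15 in blood neutrophils had 1 array far from the others of its group of 4: replicate 7 read 197 intensity units, against 76.81 to 86.45 in the other 3. The same array was highest of its group in the summed peritoneal macrophage markers (721.9, against 380.1 to 481.9) and in Prg4 (343.9, against 42.93 to 167.4), while Gata6 lay between 88.53 and 104.4 in all 4 arrays, and the part of such cells was not tested. Only the groups of 4 arrays entered this search, in 18 combinations of gene and group, and chance alone flags about 1 in 20.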

How the results depend on the processing

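Of the 224 member results tested in the main fits, none turned its direction past the threshold under any alternative run. Member calls numbered 18 in epithelium (17 to 21 with 1 array left out), 17 in granulocytes (16 to 18), 40 in phagocytes (39 to 43) and 6 in stroma (5 to 7), and stayed within 1.5 times of these under every alternative. In the GFP-sorted medulla they numbered 8 (5 to 8, the 5 without GFP+ array 7), in spleen T cells 1 (0 to 1, the 0 without effector array 1 or naive array 3), in thymocytes 4 (3 to 5) and in cultured T cells 4 (3 to 6). Culture gave 7 calls with all groups in one fit, with no filter, and with the replicate block, and thymocytes gave 1 with all groups in one fit and 2 with the stricter filter, which tests fewer probe sets. Why the other counts moved was not tested. Calls of single genes lost and gained were 9 and 4 with all groups in one fit, 4 and 3 under quantile normalization, 0 and 3 with the stricter filter, 0 and 3 with the trended robust fit, 0 and 2 with 32 added, 3 and 6 with the replicate block, and 49 and 40 over all fits that left out an array. Same-numbered arrays also deviated together in some comparisons of 2 shared numbers, as in cortical Sca1+ cells against CEChi (r = 0.61). In CD8 cells r was 0.54 at 24 h and 0.52 at 1 h, and the labels do not say whether these are pairs. Others deviated in opposite ways, as in eosinophils against neutrophils (r = -0.59) and fat macrophages against CD11b+ dendritic cells (r = -0.59 and -0.32). The main fits took no numbers as pairs, and in GFP+ against GFP- cells the block changed no call. Calls did change under the block in other comparisons. There the block lost the calls of Alox5 in peritoneal mast cells against eosinophils (0.42, adjusted p = 0.38), of Ltc4s in skin mast cells (-0.32, adjusted p = 0.37) and of Ptges in neutrophils (0.55, adjusted p = 0.095), and gained Alox15 in fat CD11b+ dendritic cells (1.13, adjusted p = 0.029) and cortical Sca1+ cells (1.06, adjusted p = 0.044), Ltc4s in LEC (0.58, adjusted p = 0.033), and Lta4h in CD4 cells at 1 h (-0.57, adjusted p = 0.010) and CD8 cells at 24 h (0.37, adjusted p = 0.049) and 48 h (0.55, adjusted p = 0.010). Near the threshold, Ptges in MEChi against MEClo (0.81 ± 0.32, adjusted p = 0.065) was called under quantile normalization (0.78, adjusted p = 0.032). No member had another probe set of 1 symbol, so that alternative was not run. Without detection calls, dim levels have no order.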
